A study of Mus musculus with 14 samples.

Results

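Activins and bone morphogenetic proteins (BMPs) are secreted ligands of the TGF-beta superfamily, and a set of secreted or membrane-bound antagonists holds them away from their receptors. Follistatin and its relatives Fstl3 and Fstl1, the membrane protein Crim1, and Grem1, Nog, Chrdl1, Bmper and Twsg1 make up the 9 antagonist genes described here. Activin signals pass through Smad2 and Smad3 and BMP signals through Smad1, Smad5 and Smad9, and in the lung both pathways act in branching of the airways, in repair and in fibrosis. Members were taken as every probe set, the group of probes that reads 1 transcript, that the array annotation pairs with exactly 1 of these symbols, which gave 18 of 45101 probe sets. The genes were proposed with results of these data in view, by their signals in the 3 groups, and which comparison led to them is not recorded. Their signals and differences are therefore given as a description, with no p-value. The probe set that was brightest on average over the 14 arrays stood for its gene, and by it 7 of the 9 genes passed the filter on low signal and were among the 12985 genes tested. Grem1 and Nog lay below it.

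RNA came from lungs of C57BL/6 mice at 20 weeks of age, 1 array per sample, with 5 samples from mice lacking the tetraspanin CD151 (CD151KO), 5 from mice lacking the tetraspanin CD9 (CD9KO) and 4 from wild type mice (numbers 1, 3, 4 and 5). How either gene was inactivated, the sex of the mice and whether each sample came from a different animal were not stated in the labels, so the spread and the p-values below may be technical. Values are normalized signals on a linear scale from 4.78 to 29667, with array medians of 84.1 to 86.2, and the number of arrays limits the precision. Differences are on the scale of log2(signal + 16), and fold sizes are those of signal + 16, which understates changes of low signals.

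The deleted genes matched the labels on every array. Cd151 gave 1058 ± 17.7 in CD151KO, 4987 ± 149 in CD9KO and 5330 ± 372 in wild type (SD, n = 5, 5 and 4), and Cd9 gave 667 ± 52.3 in CD9KO, 8232 ± 265 in CD151KO and 8096 ± 69.4 in wild type. All 8 defining markers of lung epithelium were measured, with mean signals from 106 for Nkx2-1 to 29103 for Scgb1a1. Principal component analysis of the tested genes gave a first component with 37.5% of the variance, and number 1 of CD151KO and number 1 of wild type stood apart on it (-17.2 and -18.5, against -8.02 to 13.3 for the other arrays). None of the 9 genes lies on chromosome 7 or 6, which carry Cd151 and Cd9. In bulk lung RNA, fewer cells of a type and less RNA per cell cannot be told apart.

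Follistatin (Fst, chr13:114452262-114458989, GRCm38.p6), which binds activins very tightly and blocks their receptor sites, had its lowest signals in CD151KO and its highest mean in CD9KO. In CD151KO the 5 samples gave 51.4, 54.2, 71.3, 81.9 and 85.6. In CD9KO they gave 155, 97.1, 155, 139 and 144, and in wild type 66.5, 106, 166 and 110. Every CD151KO sample lay below every CD9KO sample, while wild type spread across both groups because its number 1 fell among the CD151KO samples. The means were 68.9 ± 15.6 in CD151KO, 138 ± 23.9 in CD9KO and 112 ± 41.0 in wild type (SD, n = 5, 5 and 4). The log2 difference was -0.86 (SE 0.18) for CD151KO against CD9KO, 1.82-fold lower on signal + 16. Against wild type it was -0.56 (SE 0.19) in CD151KO and 0.30 (SE 0.19) in CD9KO, and both knockout groups overlapped wild type. Fst was the only one of the 7 members past limma's threshold (adjusted p under 0.05) between the knockouts, where 10.1% of all genes were called and 4.12% were called lower in CD151KO. It was also the only 1 of the 7 with all CD151KO samples below all CD9KO samples, as had 4.06% of genes. Its call stood in each of the 24 alternative fits that tested it, and nothing is read from these counts, since the gene was chosen on these signals.

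A second Fst probe set measured the same order less widely. It gave 66.2 ± 6.60 in CD151KO, 89.8 ± 15.3 in CD9KO and 88.5 ± 14.8 in wild type (SD, n = 5, 5 and 4). The log2 difference was -0.36 (SE 0.10) for CD151KO against CD9KO and -0.34 (SE 0.11) for CD151KO against wild type. On it the ranges met, at 58.9 to 77.0 in CD151KO against 70.5 to 113 in CD9KO, and number 1 of wild type was again its group's lowest (67.6, others 89.4 to 101). Both probe sets lie near the middle of all probe sets by level, at the 53.3rd and 48.6th percentile.

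**Figure D1:**
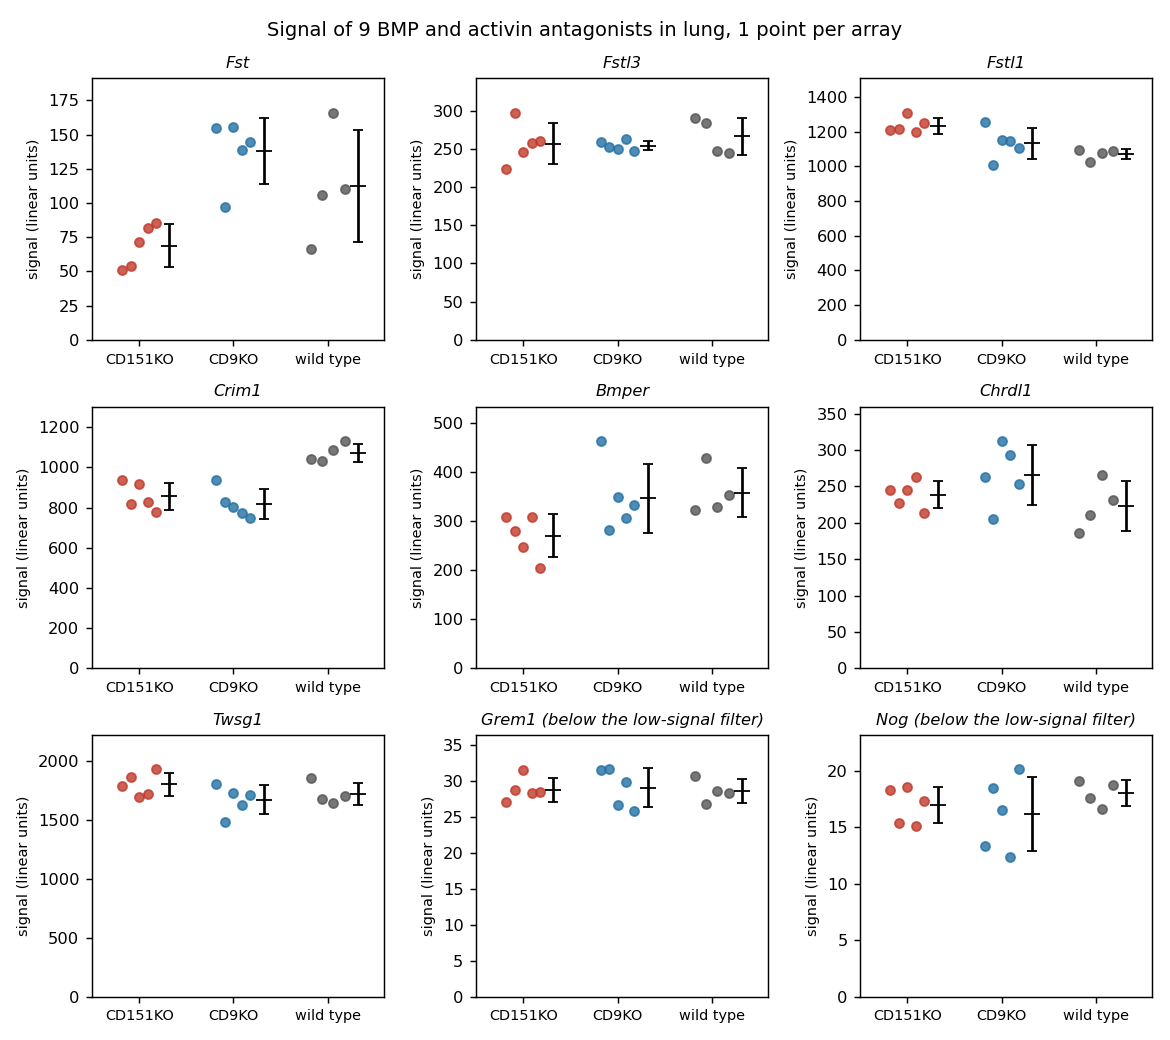
Normalized signal (linear units, vertical axis from 0) of the probe set that represents each of the 9 antagonist genes, with 1 point per array in the order of the replicate numbers and a bar for the mean ± SD of 5 CD151KO, 5 CD9KO and 4 wild type arrays. Fst is low in CD151KO (51.4 to 85.6) beside CD9KO (97.1 to 155), Crim1 is lower in both knockouts (at most 939) than in wild type (at least 1033), and Grem1 and Nog sit at 12.4 to 31.7.

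Fst moved across the arrays together with the markers of neutrophils, granulocytes that enter the lung in inflammation, and in the opposite direction. Of 8 neutrophil markers 6 were measured, none of them at 0, with mean signals from 30.8 for Camp to 1849 for S100a8, and 4 passed the low-signal filter. Their mean log2 signal was 7.43 to 8.57 in CD151KO, 6.88 to 7.28 in CD9KO and 7.21 to 7.95 in wild type. All 4 were higher in CD151KO than in CD9KO by limma, where 5.99% of all genes were called higher. Among them were S100a9 (2564 ± 1550 against 639 ± 102, log2 1.78, SE 0.36, adjusted p = 0.0081) and Cxcr2 (116 ± 29.7 against 61.9 ± 8.76, log2 0.74, SE 0.14, adjusted p = 0.0058). Against wild type 0 of the 4 passed in either knockout. Number 1 of wild type, the array with the least Fst in its group, had the most of these markers in its group. Over the 14 arrays Pearson's r between Fst and the neutrophil level was -0.93 and Spearman's rho -0.94, given as a description with no p-value because Fst was chosen on its signals in these groups. Without number 1 and number 2 of CD151KO, the 2 arrays farthest from the median, r was -0.89, and with the group means removed it was -0.82. Within the groups r was -0.96 in CD151KO, -0.79 in CD9KO and -0.90 in wild type, each over 5 arrays or fewer. The part of these markers in the Fst difference was not tested.

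Other measures of the arrays moved with Fst less closely over the 14 arrays. Its r with the first principal component, on which CD9KO scored 7.23 to 13.3 and every other array 2.47 or less, was 0.80 and its rho 0.69. With the group means removed r was 0.79. Without number 1 of wild type and number 1 of CD151KO it was 0.71. Within the groups it was 0.94 in CD151KO, 0.27 in CD9KO and 0.87 in wild type. Of 13 circadian clock genes 6 fell and 2 rose in CD151KO against wild type, where 0.323% and 0.454% of all genes did. The clock list gave 8.78 to 9.12 in CD151KO, 9.19 to 9.35 in CD9KO and 9.17 to 9.31 in wild type. Its r with Fst was 0.80 over all arrays and its rho 0.74. The r was 0.71 without number 1 and number 3 of CD151KO and 0.47 with the group means removed. Within the groups it was 0.88 in CD151KO, -0.16 in CD9KO and 0.53 in wild type. The endothelial markers gave an r of -0.67 with Fst, and -0.77 with the group means removed. The immediate early gene list gave -0.60, and -0.705 with the group means removed. Without number 1 of wild type and number 1 of CD151KO these lists gave -0.52 and -0.31. Within CD151KO, CD9KO and wild type r was -0.91, -0.06 and -0.94 for the endothelial markers. For the immediate early list it was -0.895, -0.17 and -0.77 in the same order. What any of these measures adds to the Fst difference was not tested.

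**Figure D2:**
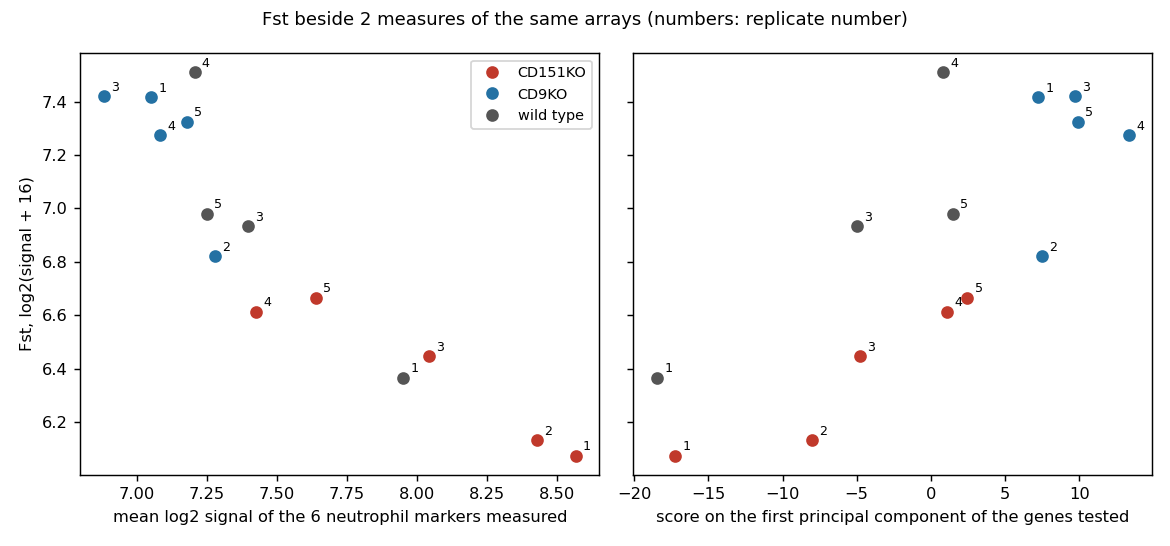
Fst as log2(signal + 16), vertical axis, against the mean log2 signal of the 6 neutrophil markers measured (left) and the score on the first principal component (right), with 1 point per array numbered by replicate. Arrays with more neutrophil marker signal had less Fst (r = -0.93 over 14 arrays), and number 1 of wild type lies beside the CD151KO arrays in the left panel.

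The 5 tested genes outside the 9 whose log2 values followed Fst most closely over the 14 arrays were Zbtb20 (Pearson's r 0.95), Pus7 (0.92), Rev1 (0.91), Cttn (0.91) and Fibin (0.91). Zbtb20, a zinc finger repressor, gave 1969 ± 80.1 in CD151KO, 2184 ± 76.9 in CD9KO and 2184 ± 165 in wild type (SD, n = 5, 5 and 4). Fibin gave 521 ± 44.9, 790 ± 63.3 and 652 ± 51.9 in the same order. With the group means removed the 5 correlations were 0.78 to 0.96.

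The other follistatin-type genes differed little. Fstl3 (chr10:79777274-79782630), which also binds activins and myostatin, gave 224, 297, 245, 258 and 260 in CD151KO, 258, 253, 250, 263 and 247 in CD9KO, and 290, 284, 247 and 244 in wild type. The 3 groups covered the same range, and the log2 differences against wild type were -0.05 (SE 0.07) in CD151KO and -0.06 (SE 0.07) in CD9KO. Fstl1 (chr16:37777055-37836516), a secreted glycoprotein that opposes BMP4 in the developing mouse lung, was slightly higher in CD151KO. Its CD151KO samples gave 1209, 1214, 1310, 1196 and 1248, the CD9KO samples 1253, 1005, 1154, 1146 and 1107, and the wild type samples 1093, 1027, 1080 and 1088. All 5 CD151KO samples lay above all wild type samples, and CD9KO spanned both. The log2 difference from wild type was 0.20 (SE 0.05) in CD151KO, which did not pass the threshold, and 0.08 (SE 0.05) in CD9KO. On the second Fstl1 probe set the CD151KO samples also lay above all wild type samples, at 1053 to 1134 against 929 to 1012, and above all CD9KO samples, at 883 to 1025.

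Crim1 (chr17:78200233-78376592), a transmembrane protein with chordin-like cysteine-rich repeats that binds BMPs and dampens their processing and delivery, was lower in both knockouts than in wild type. The signals were 937, 818, 917, 828 and 780 in CD151KO, and 939, 830, 803, 775 and 749 in CD9KO. In wild type they were 1044, 1033, 1085 and 1132. Both knockout groups lay wholly below wild type and overlapped each other. The means were 856 ± 67.9 in CD151KO, 819 ± 73.5 in CD9KO and 1073 ± 44.7 in wild type (SD, n = 5, 5 and 4). The log2 difference from wild type was -0.32 (SE 0.07) in CD151KO, 1.25-fold lower, and -0.39 (SE 0.07) in CD9KO, 1.31-fold lower. Between the knockouts it was 0.06 (SE 0.06). The comparisons with wild type share the same 4 wild type arrays.

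Crim1 was the only one of the 7 members called in CD151KO against wild type, where 0.778% of all genes were called and 0.323% were called lower. It was also the only one called in CD9KO against wild type, where 5.51% were called and 2.63% were called lower. Over all genes 0.131% were called in both, and 0.37% had both knockout groups wholly below wild type. The gene was chosen with these results known, and nothing is read from the counts. The call in CD151KO ended in 8 of the 14 fits that left out 1 array, namely without number 1, 3, 4 or 5 of wild type, number 2, 4 or 5 of CD151KO, or number 3 of CD9KO, which enters through the shared spread, with the log2 difference at -0.36 to -0.29 over the 14. The call in CD9KO stood in all 14.

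The second Crim1 probe set, annotated with the same target transcript, did not show the CD9KO difference. It gave 231, 270, 295, 299 and 277 in CD151KO, 369, 250, 384, 336 and 274 in CD9KO, and 323, 312, 343 and 328 in wild type. The CD151KO samples again lay below all wild type samples (log2 -0.24, SE 0.10), but the CD9KO samples lay on both sides of wild type (log2 -0.03, SE 0.10). Averaged over both probe sets, the CD9KO difference was -0.21 and neither knockout passed.

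Smooth muscle markers and an array control were also apart between the knockouts and wild type. All 8 smooth muscle markers were measured, from 122 for Lmod1 to 3346 for Acta2, and their mean log2 signal was 9.17 to 9.26 in CD151KO, 9.21 to 9.48 in CD9KO and 8.95 to 9.09 in wild type. By limma 1 of the 8 rose in CD151KO, where 0.454% of all genes were called higher. In CD9KO 5 rose, where 5.51% of all genes were called in either direction. BioB, a bacterial RNA added before hybridization, gave 357 to 417 in CD151KO, 354 to 434 in CD9KO and 310 to 347 in wild type. Crim1 had an r of -0.68 with the smooth muscle level over the 14 arrays and a rho of -0.69. The r was -0.92 without number 1 of CD9KO and number 5 of wild type, and 0.20 with the group means removed. Within the groups its sign differed, at -0.885 in CD151KO, 0.84 in CD9KO and -0.96 in wild type. The part of either in the Crim1 difference was not tested.

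The 5 tested genes most like Crim1 over the 14 arrays were Specc1l (Pearson's r 0.91), Clec3b (0.89), F11r (0.89), Sntb2 (0.89) and Ubxn4 (0.86), with 0.61 to 0.86 once the group means were removed. F11r codes for the junctional adhesion molecule JAM-A of epithelium and endothelium, and gave 2461 ± 47.7 in CD151KO, 2427 ± 42.4 in CD9KO and 2597 ± 73.1 in wild type (SD, n = 5, 5 and 4). Clec3b, which codes for the plasminogen-binding protein tetranectin, gave 630 ± 10.9, 586 ± 76.2 and 718 ± 29.8 in the same order.

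**Figure D3:**
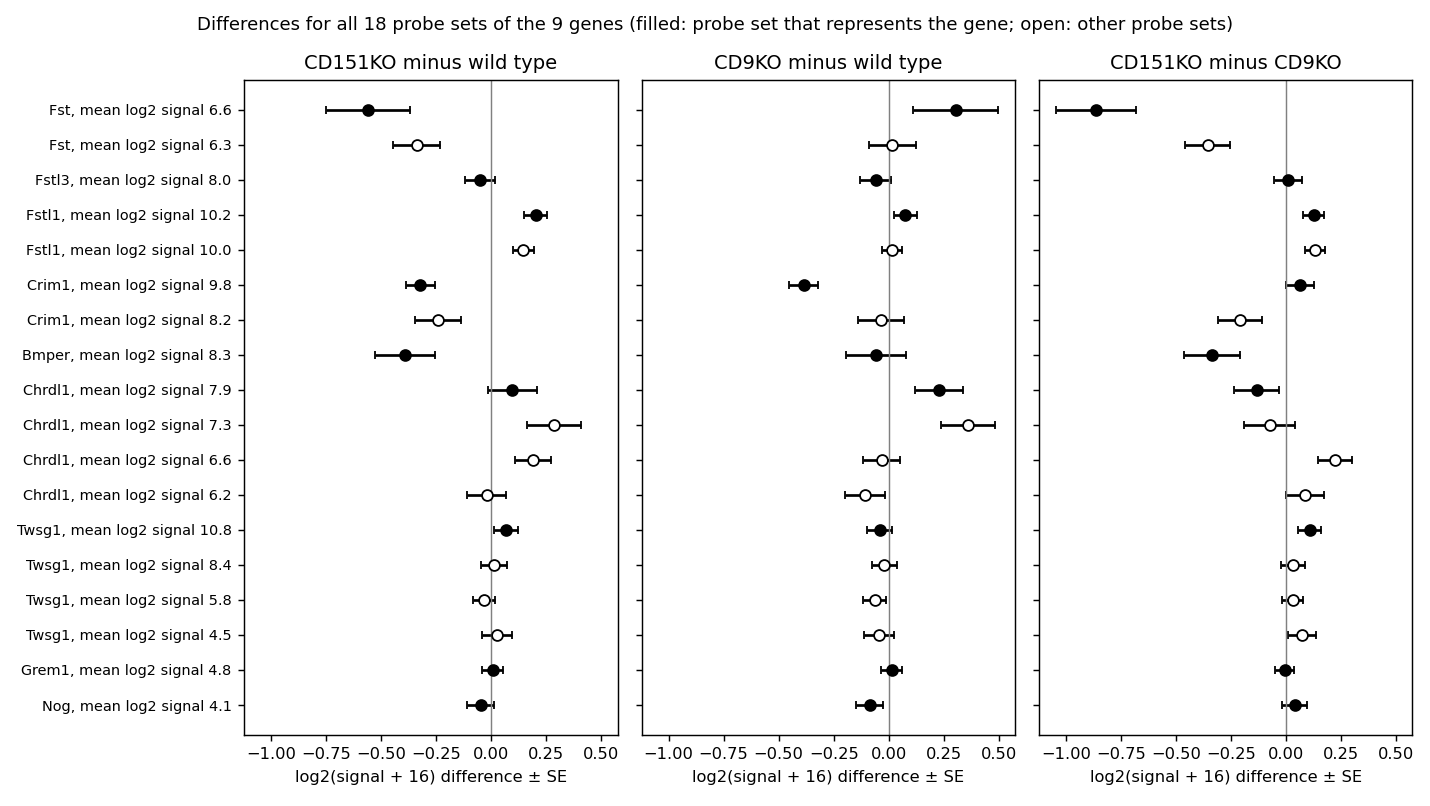
Difference in log2(signal + 16) ± SE (horizontal axis) for all 18 probe sets of the 9 genes, with filled points for the probe set that represents a gene and open points for its other probe sets, in 3 comparisons of 5 CD151KO, 5 CD9KO and 4 wild type arrays. Both Fst probe sets lie left of 0 in CD151KO against CD9KO (-0.86 and -0.36), and the Crim1 probe sets part in CD9KO against wild type (-0.39 and -0.03).

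Bmper (chr9:23223076-23485215), a secreted chordin-like protein that binds BMPs and can both block and promote them, was measured by 1 probe set. The CD151KO samples gave 308, 279, 247, 308 and 205, the CD9KO samples 463, 281, 348, 306 and 332, and the wild type samples 321, 429, 329 and 352. All CD151KO samples lay below all wild type samples, by a narrow margin (308 against 321), and CD9KO overlapped both groups. The log2 difference from wild type was -0.39 (SE 0.14) in CD151KO, 1.31-fold lower, and -0.06 (SE 0.14) in CD9KO. Between the knockouts it was -0.34 (SE 0.13), and none of these passed the threshold.

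Among the 7 genes, 2 (Crim1 and Bmper) had all CD151KO samples below all wild type samples, as had 1.69% of all genes tested, and 1 (Fstl1) had them all above, as had 2.84%. In CD9KO against wild type, 1 (Crim1) lay wholly below, as did 5.19% of genes. The median log2 difference of the 7 was -0.05 in CD151KO against wild type, -0.04 in CD9KO against wild type and 0.01 between the knockouts, beside 0.01, 0.00 and 0.00 over all genes. As these contrasts were in view when the genes were chosen, nothing is read from these counts.

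The start regions of the 3 genes whose CD151KO samples lay wholly outside wild type are shown for context. They are the 250 bases before the transcript start that the RefSeq promoter table uses (GRCm38.p6, plus strand), in lower case, and capitals would mark a searched motif. For Bmper and Fstl1 they end just before the gene's coordinates given above, while the Crim1 stretch runs past the given gene start, so its last bases lie inside the gene. RefSeq promoters were matched for 6 of the 9 genes. Fst, Nog and Chrdl1 had none and were not searched.
Crim1 (chr17:78199998-78200247): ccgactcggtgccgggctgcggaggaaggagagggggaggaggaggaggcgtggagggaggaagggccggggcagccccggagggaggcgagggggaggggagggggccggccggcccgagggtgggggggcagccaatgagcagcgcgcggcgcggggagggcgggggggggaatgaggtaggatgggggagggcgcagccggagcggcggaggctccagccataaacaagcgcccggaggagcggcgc
Bmper (chr9:23222826-23223075): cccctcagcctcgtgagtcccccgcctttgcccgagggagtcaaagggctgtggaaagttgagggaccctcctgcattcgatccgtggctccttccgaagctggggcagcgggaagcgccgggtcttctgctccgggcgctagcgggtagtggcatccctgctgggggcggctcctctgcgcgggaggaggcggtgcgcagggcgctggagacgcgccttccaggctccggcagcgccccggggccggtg
Fstl1 (chr16:37776805-37777054): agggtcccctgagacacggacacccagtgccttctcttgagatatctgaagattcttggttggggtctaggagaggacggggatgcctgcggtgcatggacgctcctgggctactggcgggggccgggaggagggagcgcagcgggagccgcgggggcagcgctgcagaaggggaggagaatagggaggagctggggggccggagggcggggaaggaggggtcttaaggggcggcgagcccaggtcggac
These 3 regions were 77.6%, 71.6% and 68.0% G and C, above the median of 52.4% over the table's 32851 promoters. On both strands, 4 motifs were searched in the same 250 bases. The E-box CACGTG, bound by clock factors, stood in 6.02% of all promoters and in 0 of the 6. The BMP-type GC motif GGCGCC stood in 9.59% and in 1 of the 6, that of Grem1. The Smad palindrome GTCTAGAC stood in 0.167% and in 0 of the 6. The shorter CAGACA, which contains the Smad core, stood in 17.1% and in 1 of the 6, that of Fstl3. The absence of a match says only that these letters are not in these windows.

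Chrdl1 (chrX:143285674-143394263), a chordin-like secreted protein that binds BMP4, had 4 probe sets that did not agree in direction. The representing one gave 244, 227, 245, 262 and 213 in CD151KO, 263, 205, 312, 293 and 253 in CD9KO, and 186, 210, 266 and 231 in wild type. All groups overlapped, with log2 differences from wild type of 0.10 (SE 0.11) in CD151KO and 0.23 (SE 0.11) in CD9KO. Over the 4 probe sets the difference ran from -0.02 to 0.28 in CD151KO and from -0.11 to 0.36 in CD9KO.

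Twsg1 (chr17:65923065-65951187), which binds BMPs together with chordin, had the strongest signals of its 4 probe sets at 1788, 1861, 1693, 1719 and 1924 in CD151KO, 1801, 1483, 1729, 1624 and 1706 in CD9KO, and 1850, 1675, 1637 and 1697 in wild type. The groups overlapped, and the log2 differences from wild type were 0.07 (SE 0.06) in CD151KO and -0.04 (SE 0.06) in CD9KO. Its other 3 probe sets differed from wild type by -0.03 to 0.02 in CD151KO and by -0.06 to -0.02 in CD9KO. Grem1 (chr2:113748675-113758648), an antagonist of the DAN family that is raised in human fibrotic lung, gave 27.1 to 31.6 in CD151KO, 25.8 to 31.7 in CD9KO and 26.9 to 30.8 in wild type. Nog (chr11:89300638-89302559), the BMP antagonist noggin, gave 15.1 to 18.6, 12.4 to 20.1 and 16.6 to 19.1 in the same order. Both lay below the filter at signal 53.3 and were not among the genes tested. Against wild type Grem1 differed by 0.01 (SE 0.05) in each knockout. Nog differed by -0.05 (SE 0.06) in CD151KO and -0.09 (SE 0.06) in CD9KO. The scale of log2(signal + 16) understates changes at such low signals, so a small difference could be missed.

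Around the antagonists, most changes of other pathway genes lay between the knockouts, as did those of all genes. Of 95 ligands, receptors, Smads, targets and further antagonists, 62 were tested. In CD151KO against wild type 1 rose, 0 fell and 61 did not pass, where 0.454% of all genes were called higher. There 14 of the 62 had an unadjusted p under 0.05, a larger share than the 11.1% of all genes. In CD9KO against wild type 0 passed by limma, where 5.51% of all genes were called. At an unadjusted p under 0.05 were 15 of the 62, a share close to the 25.4% of all genes. Between the knockouts 5 were higher and 4 lower in CD151KO, which is 14.5% beside 10.1% of all genes (5.99% higher and 4.12% lower). Here 19 of the 62 had an unadjusted p under 0.05, beside 27.6% of all genes. The median log2 difference of the 62 was -0.02, -0.01 and -0.02 in the 3 comparisons.

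The 1 gene that rose against wild type was Htra3, a secreted serine protease that binds and inhibits TGF-beta family ligands. It gave 242, 245, 289, 269 and 293 in CD151KO, 243, 233, 214, 201 and 199 in CD9KO, and 191, 188, 197 and 183 in wild type. All CD151KO samples lay above all wild type samples, and CD9KO lay above wild type with 1 sample reaching into the CD151KO range. The log2 difference was 0.46 (SE 0.07, limma adjusted p = 0.0053) in CD151KO against wild type and 0.28 (SE 0.06, adjusted p = 0.014) against CD9KO. The other 2 Htra3 probe sets differed by -0.10 and -0.05 in CD151KO against wild type, and with the mean of all 3 both calls ended (0.11 in each).

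Among 11 ligand genes tested, Inhbb, which codes for the beta-B subunit of activins and inhibins, was higher in CD151KO than in CD9KO. It gave 474, 521, 542, 478 and 528 in CD151KO and 383, 378, 421, 470 and 384 in CD9KO, with wild type between at 470, 528, 421 and 407. The knockouts did not overlap (log2 0.31, SE 0.07, limma adjusted p = 0.017). Its second probe set differed by 0.07 between them. The other 10 ligands did not pass in any of the 3 comparisons. Bmp4 gave 1209 ± 178 in CD151KO and 1470 ± 268 in CD9KO (adjusted p = 0.163), and Bmp6 880 ± 83.3 in CD9KO and 1112 ± 171 in wild type (adjusted p = 0.071).

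Of 14 receptors and co-receptors, 3 were lower and 1 higher in CD151KO than in CD9KO, where 4.12% and 5.99% of all genes were. By limma 0 passed in either comparison with wild type. An unadjusted p under 0.05 was reached by 4 in each, beside 11.1% of all genes in CD151KO and 25.4% in CD9KO. Tgfbr3, the co-receptor betaglycan, gave 2907, 2716, 2871, 2845 and 2958 in CD151KO, 3696, 3382, 3265, 3301 and 3727 in CD9KO, and 3441, 3116, 3218 and 3166 in wild type. CD151KO lay below both other groups (log2 -0.28, SE 0.04, limma adjusted p = 0.0021 against CD9KO, and -0.18, SE 0.05, adjusted p = 0.098 against wild type). Acvr2a, a type II receptor of activins, was likewise lowest in CD151KO, at 727 ± 22.2, against 833 ± 48.8 in CD9KO (log2 -0.19, limma adjusted p = 0.017) and 827 ± 44.0 in wild type (adjusted p = 0.109). Eng, the endothelial co-receptor endoglin, gave 1555 ± 148 in CD151KO and 1851 ± 110 in CD9KO (log2 -0.25, limma adjusted p = 0.019). This call ended without number 5 of CD9KO (log2 -0.23). Neo1, the neogenin receptor of repulsive guidance molecules, was higher, at 586 ± 34.8 in CD151KO against 494 ± 46.0 in CD9KO (log2 0.24, limma adjusted p = 0.026), and its call ended without number 1, 2 or 5 of CD151KO or number 3 or 5 of CD9KO. Averaging the probe sets of each gene also ended the Acvr2a and Neo1 calls (log2 -0.13 and 0.10).

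Further down the pathway, Smad3, which carries activin and TGF-beta signals, gave 660 ± 36.1 in CD151KO and 593 ± 29.3 in CD9KO (log2 0.15, limma adjusted p = 0.038), the only call among 15 Smads and regulators between the knockouts, and it ended without any 1 of the 5 CD151KO arrays other than number 5, or without number 2, 3, 4 or 5 of CD9KO. It also ended with the probe sets averaged (log2 0.08) and with only the knockouts in the fit (log2 0.15). Ccn2, a matricellular target of TGF-beta, was lower in CD151KO than in CD9KO, at 3127 ± 343 against 4196 ± 671 (log2 -0.41, limma adjusted p = 0.021). Wild type stood at 4035 ± 394 (adjusted p = 0.173 against CD151KO), and the call between the knockouts ended without number 1 of CD151KO or number 4 or 5 of CD9KO. Ccn2 was the only 1 of the 8 activin and TGF-beta targets tested that passed between the knockouts, where 10.1% of all genes were called. The list's median log2 difference there was 0.03, with Pmepa1 and Tgif1 higher in CD151KO (0.17 and 0.13) and Smad7 lower (-0.11). Against wild type 0 of the 8 passed in either knockout. In CD151KO Pmepa1 was higher than in wild type (log2 0.27, limma adjusted p = 0.082) and Ccn2 lower (log2 -0.37). Of 10 BMP targets tested, Id1 to Id4 and the inhibitory Smads among the list, 0 passed by limma in any comparison. At an unadjusted p under 0.05 were 1 in CD151KO against wild type, 2 in CD9KO against wild type and 1 between the knockouts. Over all genes the shares were 11.1%, 25.4% and 27.6% in this order. Id4 came nearest in CD151KO against wild type, at 289 ± 57.2 and 378 ± 56.5 (adjusted p = 0.276). Bmp1, the protease that cleaves chordin and procollagens, was higher in CD151KO than in CD9KO, at 454 ± 25.2 against 399 ± 13.4 (log2 0.18, limma adjusted p = 0.016), and this call ended with the mean of its probe sets (log2 0.06).

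**Figure D4:**
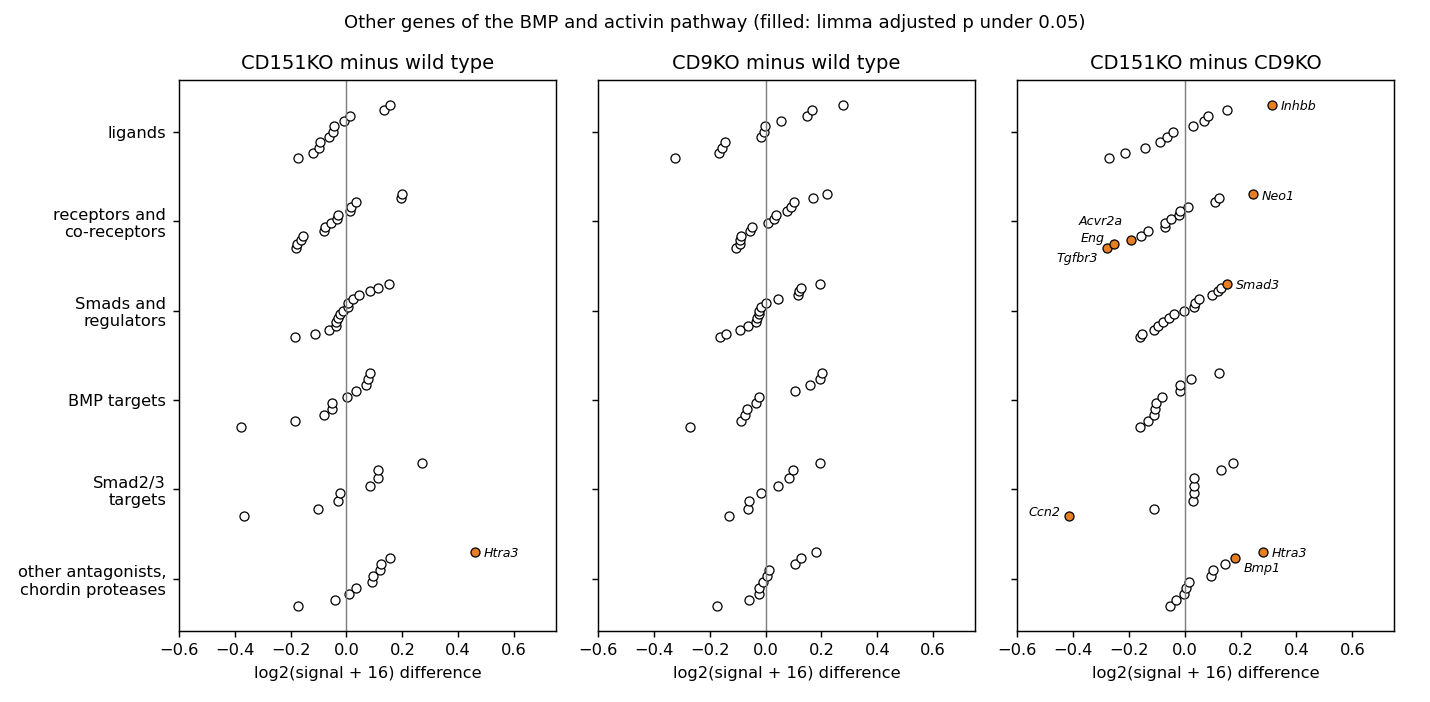
Difference in log2(signal + 16) (horizontal axis) of the tested ligands, receptors, Smads, targets and further antagonists, 1 point per gene ordered by its difference within each list, in 3 comparisons of 5 CD151KO, 5 CD9KO and 4 wild type arrays. Filled, named points passed limma at an adjusted p under 0.05: 1 in CD151KO against wild type (Htra3, 0.46), 0 in CD9KO against wild type and 9 between the knockouts.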

How the data were processed

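The authors deposited linear intensities described as normalized per the labels, 1 for each probe set on each array. Per the submitters' processing notes the tools were Affymetrix Expression Console and MAS5, with no roles stated. How probes were summarised was not stated either, and this affects low signals most. Of the probe sets, 34958 had 1 gene symbol, 932 several and 9211 none (the last 2 kinds and 64 controls were not tested). Each gene took its probe set with the highest mean, 18193 genes, and 5208 below the 40th percentile (signal 53.3) were left out. log2(signal + 16) was fitted with limma 3.58.1 in R 4.3.3 (3 groups, all 14 arrays, eBayes with trend, 11 residual degrees of freedom), two-sided, with Benjamini-Hochberg adjustment over 12985 genes. All adjusted p-values of genes are limma's. Relations of 7 genes with 18 array measures (marker lists and the first component) are given as Pearson's r and Spearman's rho over 14 arrays (126 relations), with no p-value. The procedure was tested on simulated data with noise drawn independently for each gene and array, so a component shared across genes was not simulated. Members and lists were chosen with earlier results of these data known. The genes named were all members, Cd151 and Cd9, every pathway gene past the threshold and up to 3 others per list by smallest p, and the 5 genes most like Fst and like Crim1. S100a9 and Cxcr2 were named after their values were seen. Figures used matplotlib 3.10.9.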

Additional observations from a re-analysis of the deposited data

Results flagged for a closer look

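In 6 of 54 groups of member signals (18 probe sets in 3 groups), 1 array lay far from the rest of its group by Dixon's 95% criterion. Chance alone flags about 1 in 20 groups. The 54 are not independent, since they share arrays and some probe sets read the same gene, so no excess is read from the count. For the probe set representing Fst, number 2 of CD9KO gave 97.1, with the other 4 at 139 to 155. For a second Fstl1 probe set, number 3 of CD151KO gave 1134 (others 1053 to 1074). Number 5 of CD151KO was low on a pair of lesser Chrdl1 probe sets, with 95.2 (others 113 to 115) and 55.9 (others 74.2 to 80.6). For lesser Twsg1 probe sets, number 2 of CD9KO gave 288 (others 330 to 336) and number 4 of CD151KO gave 50.1 (others 55.6 to 57.6).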

How the results depend on the processing

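The Fst call between the knockouts stood in all 24 alternatives that tested it (smallest log2 difference -0.60); a filter at the 60th percentile left Fst out, so 0 members were called there. With probe sets averaged 0 members passed in CD151KO or in CD9KO against wild type, and with only the compared groups fitted 0 passed in CD151KO against wild type. Leaving out each array in turn gave 0 to 2 members in CD151KO against wild type, 1 to 1 in CD9KO against wild type and 1 to 2 between the knockouts; the second was Fstl1, without number 2 or number 1 of CD9KO. Called genes ran from 24 to 98, 159 to 866 and 682 to 1939 in the same order, against 101, 715 and 1313. Beside the replicate block, other counts that moved by over 1.5 times were 39 for CD151KO against wild type with only the compared groups, and 45 and 405 for CD151KO and CD9KO against wild type without both number 1 arrays. Settings for pathway genes were chosen after seeing the data: with probe sets averaged 0, 1 and 5 passed, against 1, 0 and 9. In CD9KO against wild type 1 passed with quantile normalization and 1 with only the compared groups (Eng in each), and 2 with the 60th percentile filter. Leaving out each array gave 1 to 1, 0 to 2 and 6 to 11. No called member or pathway gene changed sign in any alternative run. The causes were not tested.

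Whether equal replicate numbers pair the samples could not be decided from these arrays. Correlations of same-numbered deviations were over 0.1 in 3 of 4 pairs (-0.13 to 0.59) for CD151KO and wild type. For CD9KO and wild type 1 of 4 pairs was over 0.1, and for the knockouts 2 of 5. The median over differently numbered pairs was -0.01, -0.02 and -0.02 in this order, and 2, 3 and 1 samples correlated best with their own number. With the replicate block 109, 1589 and 1823 genes (the count for CD9KO against wild type moved by over 1.5 times), 1, 1 and 1 members, and 1, 3 and 10 pathway genes passed.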

Other observations

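Between the 7 antagonist genes and 18 array measures 126 relations were computed, and those below were picked after seeing them, so they are descriptions with no p-value. Twsg1 and Fstl1 followed the fibroblast markers, of which all 10 were measured, from 44.0 for Fgf10 to 4233 for Col1a2. The fibroblast level was 9.79 to 9.92 in CD151KO, 9.66 to 9.94 in CD9KO and 9.70 to 9.80 in wild type. For Twsg1 r was 0.74 and rho 0.82, with r 0.86 once the group means were removed, 0.65 without number 1 and number 2 of CD9KO, and 0.82, 0.90 and 0.99 within CD151KO, CD9KO and wild type. For Fstl1 r was 0.75 and rho 0.80, with r 0.69 once the group means were removed, 0.63 without the same arrays, and -0.37, 0.92 and 0.42 within the 3 groups.

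Bmper and the alveolar type 1 markers gave r = 0.77 and rho = 0.63, with r 0.49 without number 5 and number 3 of CD151KO and 0.69 with the group means removed. Within CD151KO, CD9KO and wild type r was 0.71, 0.94 and 0.23. Fst and the alveolar type 2 markers gave r = -0.79 and rho = -0.70, with r -0.64 without number 1 and number 2 of CD151KO and -0.51 with the group means removed. Within the 3 groups it was -0.62, 0.21 and -0.71.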
